A study of Arabidopsis thaliana with 8 samples.

Results

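The genes described here are the nuclear genes for the subunits of photosystem I and photosystem II and for the chlorophyll-binding antenna proteins around them. The rule lists them by name and uses no measured value, though earlier results of these data were known when the list was drawn up. The list holds LHCA1 to LHCA6, which code for the antenna of photosystem I (6 genes), the LHCB1 to LHCB6 families of the antenna of photosystem II (14 genes), and the nuclear PSA (12 genes) and PSB (10 genes) subunits. That makes 42 loci of the 34290 genes on the array. Probes were matched to these loci through the RefSeq transcript that the scanner file gives for each probe. The match gave 126 probes, every one of which passed the filter on dim probes, so all 42 genes were tested.

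In chloroplasts the antenna proteins bind chlorophyll and pass light energy to the reaction centres of both photosystems. Photosystem II uses that energy to split water, and photosystem I uses it to reduce ferredoxin. The reaction-centre cores are encoded in the plastid, whereas the antenna proteins and many peripheral subunits are encoded in the nucleus, made in the cytosol and imported. In leaves these nuclear transcripts are among the most abundant of all, and light and signals from the chloroplast are known to control them together.

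RNA came from leaves of 35S::Rap2.9-GFP plants (4 arrays) and of wild-type Col-0 plants (4 arrays), and the comparison asks how transcripts differ when RAP2.9 is overexpressed. RAP2.9 belongs to the AP2/ERF transcription factors, and the transgene expresses it, fused to green fluorescent protein, from the constitutive viral 35S promoter. The labels name no separate line. Col-0 is the standard laboratory accession of Arabidopsis thaliana and carried no transgene. Both genotypes were untreated and 54 days old. Seeds were chilled at 7 °C for 3 days, plants then had 8 h of light per day at 22 °C for 20 days, and for the last 34 days they had 12 h of light at 60 µmol and 12 h of dark at 22 and 18 °C with 60% humidity. For each array 200 ng of RNA was labelled with Cy3, and the series text calls the 4 samples of a genotype biological replicates. Whole leaves were measured, so fewer cells of a type and less RNA per cell cannot be told apart.

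Levels are given as log2 of the processed signal over the 75th percentile of the same array, and a change is the transgenic mean minus the Col-0 mean on that scale. The share of probes well above background was 72.4% to 84.3%, and the number of arrays limits the precision. One probe for RAP2.9 (AT4G06746) was 17.7-fold higher in the transgenic leaves (5.83 ± 0.25, against 1.69 ± 0.21 in Col-0, SD, n = 4 each), while its other probe was 3.42-fold lower. Of the 4 mesophyll markers, which check the labelled tissue, CA1 rose by 0.96 (adjusted p = 0.0237), and RBCS1A, RCA and GAPA did not pass the threshold. Their summed level was 8.37 to 8.69 on the transgenic arrays and 8.34 to 8.52 on the Col-0 arrays.

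With each gene represented by its brightest probe, 8 of the 42 genes were higher in the transgenic leaves, 0 were lower and 34 did not pass (limma, adjusted p under 0.05 over all 25102 genes). The 8 genes are 19% of the list, beside 18.6% of all genes that were higher and 16% that were lower. The genes that rose were LHCB2.3, LHCB2.1, LHCA6, PSAH2, PSAH1, PSBY, PSBO2 and PSBS. At an unadjusted p under 0.05, limma gave 10 higher and 1 lower of the 42, beside 6184 higher and 5214 lower of all 25102 genes. The median change over the 42 genes was 0.05, against 0.03 over all genes tested. The transgenic arrays lay above every Col-0 array for 6 of the 42 genes, beside 19.7% of all genes, and below every Col-0 array for 0, beside 17% of all genes. The share that was higher is thus close to that of all genes for the brightest probes, where LHCB2.3 and LHCB2.1 had the largest changes. Mean levels of the brightest probes of the 8 higher genes were all under 6, from 1.87 for LHCB2.1 to 5.89 for PSBY. Dimmer probes of LHCB1.4 rose by 1.38 and 1.44, more than the 1.03 of LHCB2.1.

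**Figure D1:**
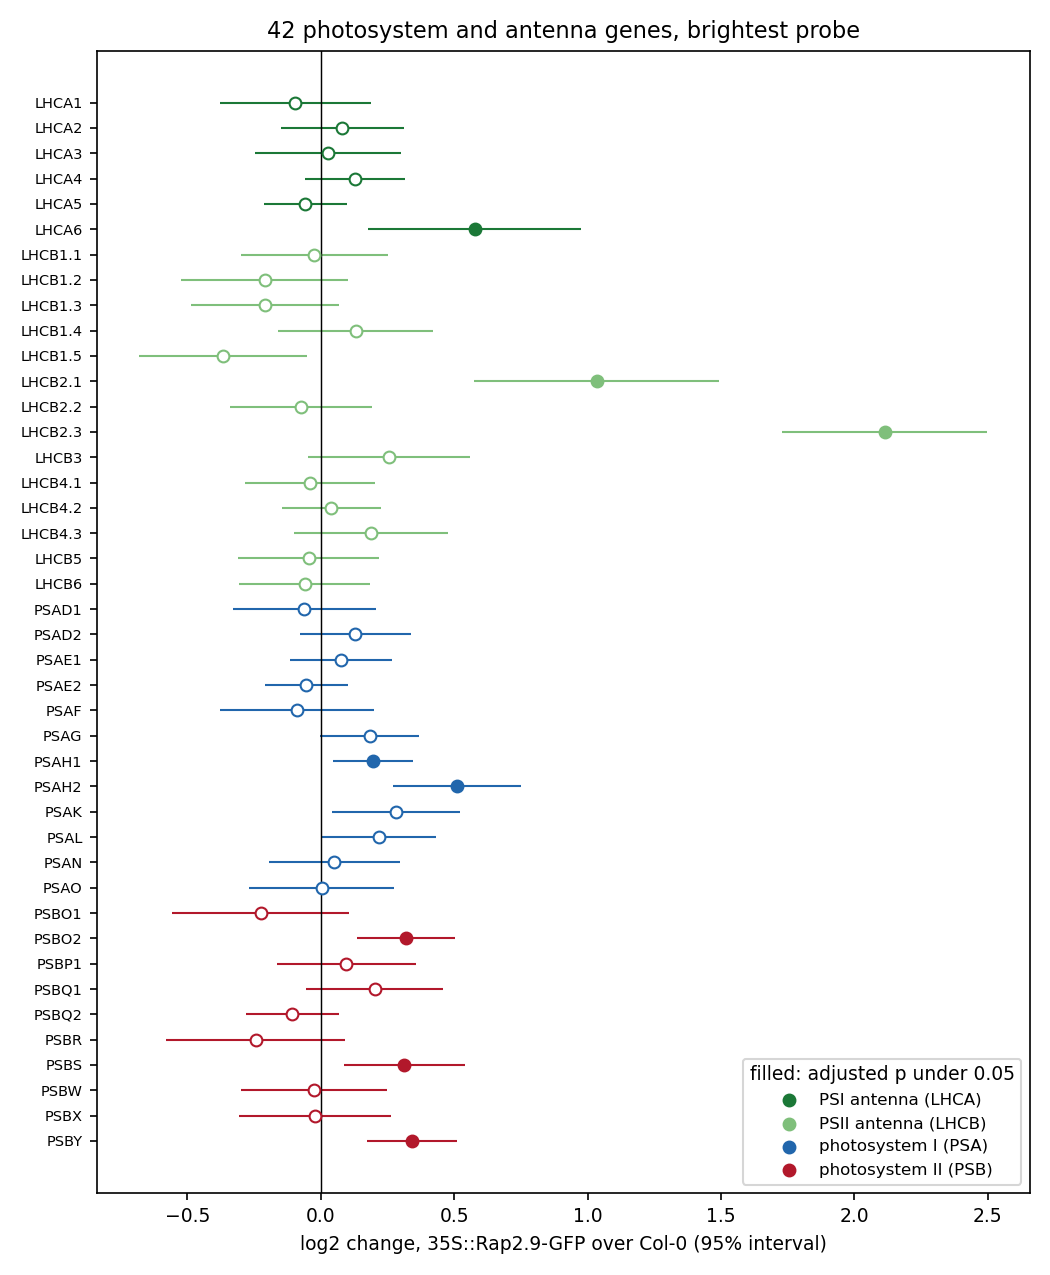
Log2 change of the 42 genes, 35S::Rap2.9-GFP over Col-0, with 95% intervals from limma (x axis), 1 gene per row, coloured by class; filled points passed the threshold. With the brightest probe of each gene, LHCB2.3 at 2.11 and LHCB2.1 at 1.03 stand apart, and the other genes lie between -0.36 and 0.58.

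LHCB2 proteins, with LHCB1 and LHCB3, make up the trimers of the major light-harvesting complex of photosystem II, and phosphorylated LHCB2 is known for its part in state transitions, in which antenna moves between the photosystems. LHCB2.3 (AT3G27690) had levels of 5.83, 5.47, 5.45 and 5.56 on transgenic replicates 1 to 4, against 3.81, 3.47, 3.05 and 3.53 on Col-0 replicates 1 to 4. Every transgenic array was far above every Col-0 array. The rise was 4.33-fold, a log2 change of 2.11 ± 0.17 (SE, n = 4 each, limma adjusted p = 0.000142), with a 95% interval of 1.73 to 2.50. Within the slides, each of which held 2 arrays of each genotype, the change was 2.09 and 2.14. The dimmer LHCB2.3 probe gave 2.25 ± 0.23 (SE). The call held in all 24 alternative settings that were run.

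LHCB2.1 (AT2G05100) had levels of 2.41, 2.65, 2.11 and 2.36 on the transgenic arrays, against 1.78, 1.2, 0.92 and 1.5 on the Col-0 arrays. The groups did not overlap, and Col-0 replicate 1 lay nearest to the transgenic arrays. The gene rose 2.05-fold, a log2 change of 1.03 ± 0.20 (SE, adjusted p = 0.00637), with 1.16 and 0.91 within the slides. Its dimmer probe had 1.27 to 1.59 on the transgenic arrays and -0.84 to 0.01 on the Col-0 arrays, and rose by 1.92 ± 0.18 (SE, limma adjusted p = 0.000276 over 33160 probes). The call held in all 24 alternative settings.

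LHCB2.2 (AT2G05070) differed between its 4 probes. The brightest probe had 7.30, 7.75, 7.28 and 7.33 on the transgenic arrays and 7.52, 7.36, 7.5 and 7.57 on the Col-0 arrays. These groups overlapped, and the change of -0.07 ± 0.11 (SE, adjusted p = 0.654) did not pass. The other 3 probes were higher, by 0.27, 0.88 and 0.79. The probe at 0.88 read 2.26, 2.71, 2.08 and 2.25 on the transgenic arrays, against 1.86, 1.31, 0.98 and 1.62 on the Col-0 arrays. These groups did not overlap. LHCB2.1 and LHCB2.2 are near-identical copies, and whether a probe reads 1 or both of them was not tested, so which copy rose is uncertain. Whether a probe of either gene also reads LHCB2.3, or the reverse, was not tested.

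**Figure D2:**
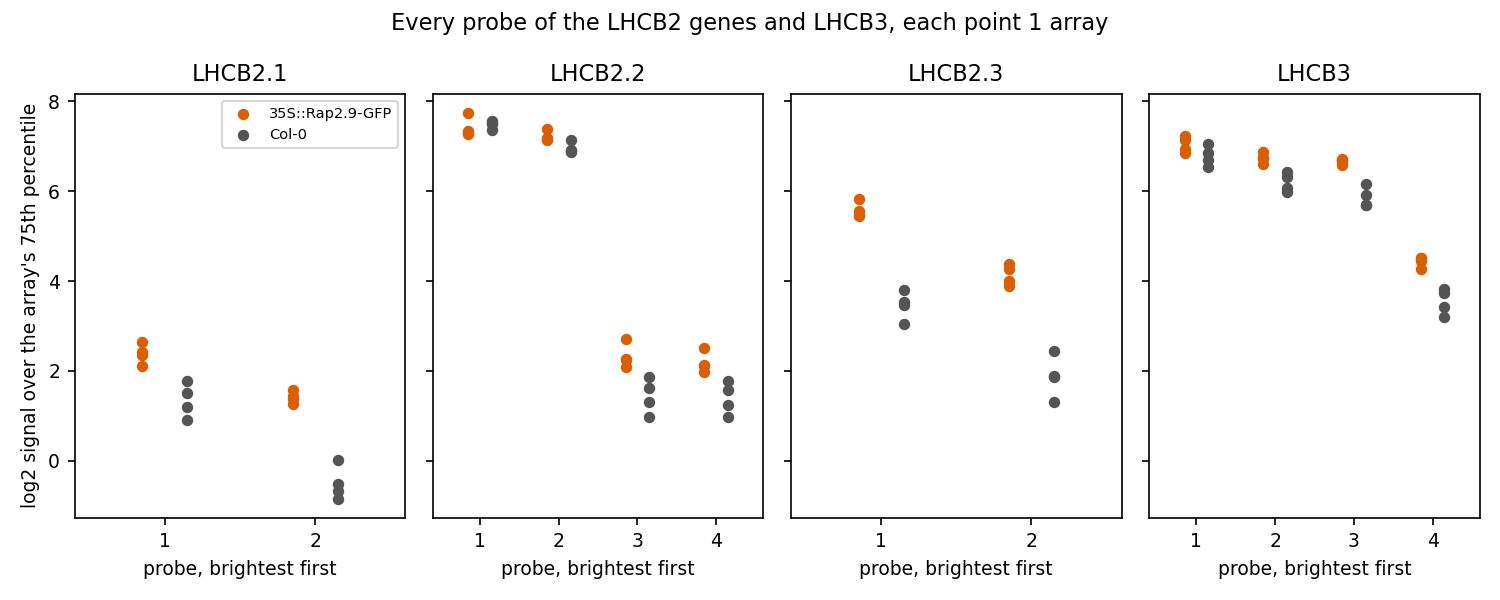
Log2 signal over the 75th percentile of the array (y axis) for every probe of LHCB2.1, LHCB2.2, LHCB2.3 and LHCB3, brightest probe first (x axis); each point is 1 array, with 35S::Rap2.9-GFP to the left of Col-0. The groups are apart for both LHCB2.3 probes, at changes of 2.11 and 2.25, and overlap for the brightest probes of LHCB2.2 and LHCB3.

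LHCB3 codes for a further trimer protein of the major antenna. Its brightest probe (AT5G54270) had 7.14, 7.23, 6.85 and 6.95 on the transgenic arrays and 7.04, 6.54, 6.70 and 6.86 on the Col-0 arrays, which overlapped (change 0.26 ± 0.13, SE, adjusted p = 0.168). The other 3 probes were higher, by 0.54, 0.80 and 0.90, with adjusted p of 0.00891, 0.0016 and 0.0028. For each of these 3 the transgenic arrays lay above every Col-0 array.

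The LHCB1 genes, which code for the most abundant antenna protein, sit in a pair of groups of neighbouring copies, LHCB1.2, LHCB1.1 and LHCB1.3 in one and LHCB1.5 and LHCB1.4 in the other. None of the 5 passed with its brightest probe. LHCB1.5 (AT2G34420) had 7.05, 7.58, 7.04 and 7.06 on the transgenic arrays and 7.46, 7.57, 7.70 and 7.46 on the Col-0 arrays. All but transgenic replicate 2 lay below every Col-0 array, and the change was -0.36 ± 0.13 (SE, adjusted p = 0.0728). Changes were -0.21 for LHCB1.2 and for LHCB1.3, -0.02 for LHCB1.1 and 0.13 for LHCB1.4. Without transgenic replicate 2, LHCB1.2 (-0.33), LHCB1.3 (-0.33) and LHCB1.5 (-0.50) passed as lower, in a fit where 15.9% of all genes did.

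Dimmer probes of the LHCB1 genes read otherwise. The dimmest probe of LHCB1.4 read 0.44, 0.13, -0.10 and 0.41 on the transgenic arrays, against -0.60, -1.28, -1.65 and -1.12 on the Col-0 arrays, and rose by 1.38 ± 0.23 (SE, adjusted p = 0.0034). The next LHCB1.4 probe rose by 1.44. The dimmest LHCB1.1 probe rose by 0.77 ± 0.14 (SE, adjusted p = 0.00549), and 1 of 9 LHCB1.3 probes was higher, by 0.39. No probe of LHCB1.2 or LHCB1.5 passed in either direction. The copies are near-identical and the files hold no probe sequences, so the copy each probe reads is uncertain.

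The remaining antenna proteins of photosystem II, LHCB4 (CP29), LHCB5 (CP26) and LHCB6 (CP24), are monomers that link the trimers to the core. None of their genes passed with its brightest probe. Changes were -0.04 for LHCB4.1, 0.04 for LHCB4.2, 0.19 for LHCB4.3, -0.05 for LHCB5 and -0.06 for LHCB6. Dimmer probes were higher for LHCB4.1 (3 of 5 probes, at 0.35, 0.40 and 0.51), LHCB5 (0.45) and LHCB6 (0.68). The LHCB6 probe read 3.33, 3.28, 3.13 and 3.41 on the transgenic arrays, against 2.85, 2.45, 2.44 and 2.70 on the Col-0 arrays, with no overlap. The 4 probes of LHCB4.2, which are not all assigned to the same transcript, lay between 0.02 and 0.15, and none passed. Over the 14 antenna genes of photosystem II, 2 were higher and 0 lower, beside 18.6% and 16% of all genes. The median of the class was -0.03.

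In the antenna of photosystem I, 1 of 6 genes was higher and 0 lower, beside 18.6% and 16% of all genes. The median of the class was 0.05. LHCA1 to LHCA4 form the main belt of this antenna, and LHCA5 and LHCA6 are minor proteins known for joining photosystem I to the NADH dehydrogenase-like complex of cyclic electron flow. LHCA6 (AT1G19150) had 3.71, 3.16, 3.43 and 3.64 on the transgenic arrays and 3.30, 2.74, 2.67 and 2.91 on the Col-0 arrays. Col-0 replicate 1 lay above transgenic replicate 2, and the others did not cross. The gene rose 1.49-fold (log2 change 0.58 ± 0.17, SE, adjusted p = 0.0353), with 0.41 and 0.74 within the slides. The call was lost in 10 of 24 alternative settings: without transgenic replicate 1, 3 or 4 or Col-0 replicate 2, 3 or 4 (adjusted p of 0.0661 to 0.0876), with slide as a block (0.0551), with the normexp background correction (0.0759), with median scaling (0.059) and with no filter on dim probes (0.0625). LHCA5 had a change of -0.06 ± 0.07 (SE) and did not pass.

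With the brightest probe the change was -0.09 for LHCA1, 0.08 for LHCA2, 0.03 for LHCA3 and 0.13 for LHCA4, and none passed. At least 1 dimmer probe was higher for LHCA1 (0.42), LHCA2 (0.27) and LHCA4 (0.39 and 0.41). The dimmest LHCA1 probe read 5.18, 5.12, 5.06 and 5.27 on the transgenic arrays, against 4.88, 4.57, 4.55 and 4.97 on the Col-0 arrays. That probe is assigned to another LHCA1 transcript than the brightest probe. All 3 LHCA3 probes lay between 0.03 and 0.16 and did not pass.

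Among the photosystem I subunits the median change was 0.10. Of the 12 genes, 2 were higher and 0 lower, beside 18.6% and 16% of all genes. Both were copies of PSAH, a subunit at the side of photosystem I where antenna docks in state transitions. PSAH2 (AT1G52230) had 4.32, 4.06, 4.1 and 4.29 on the transgenic arrays and 3.91, 3.50, 3.64 and 3.67 on the Col-0 arrays. The groups did not overlap, and the gene rose 1.43-fold (0.51 ± 0.10, SE, adjusted p = 0.00798). Within the slides the change was 0.40 and 0.62, and the call held in all 24 alternative settings. PSAH2 has 1 probe, so the settings that choose or average the probes of a gene used the same values for it.

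PSAH1 (AT3G16140) had 5.17, 4.98, 5.08 and 5.15 on the transgenic arrays and 5.00, 4.82, 4.92 and 4.85 on the Col-0 arrays. Transgenic replicate 2 lay below Col-0 replicate 1. Its rise of 1.15-fold (0.20 ± 0.06, SE) was at the edge of the threshold, with an adjusted p of 0.04998 over genes and 0.051 over single probes. The dimmer PSAH1 probe, at 0.14, did not pass (limma adjusted p = 0.25 over probes). The call was lost in 15 of 24 alternative settings, among them the fits without transgenic replicate 1, 3 or 4 or Col-0 replicate 2, 3 or 4 (adjusted p of 0.0853 to 0.122). PSAH1 and PSAH2 are near-identical, and whether a probe of one also reads the other was not tested.

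PSAD and PSAE, the docking subunits for ferredoxin, each have a pair of closely similar genes. Brightest-probe changes were -0.06 for PSAD1, 0.13 for PSAD2, 0.08 for PSAE1 and -0.05 for PSAE2, none of which passed. PSAF, which helps plastocyanin dock, was at -0.09 and PSAN, on the same lumen side, at 0.05. The membrane subunits near the antenna were at 0.18 for PSAG (adjusted p = 0.115) and 0.28 for PSAK (adjusted p = 0.0702). PSAL and PSAO, which sit near PSAH, were at 0.22 (adjusted p = 0.102) and 0.00. PSAK had 7.14, 7.34, 6.97 and 7.18 on the transgenic arrays against 7.07, 6.77, 6.76 and 6.90 on the Col-0 arrays, and only Col-0 replicate 1 reached into the transgenic range. Dimmer probes were higher for PSAD1 (0.48 and 0.38), PSAD2 (0.52), PSAE1 (0.47), PSAG (0.28 and 0.52), PSAN (0.35) and PSAO (0.29).

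Of the photosystem II subunits, 3 of 10 genes were higher and 0 lower, beside 18.6% and 16% of all genes. The median of the class was 0.04. PSBY (AT1G67740), which codes for small membrane proteins near cytochrome b559, had 6.15, 6.05, 6.00 and 6.04 on the transgenic arrays, against 5.76, 5.69, 5.57 and 5.85 on the Col-0 arrays. The groups did not overlap, and the rise was 1.27-fold (0.34 ± 0.07, SE, adjusted p = 0.00952), with 0.38 and 0.31 within the slides. The 2 dimmer PSBY probes, at 0.35 and 0.14, did not pass. The call was lost with normexp (adjusted p = 0.0689), the mean of the probes (0.132) and the dimmest probe (0.59).

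PSBO, PSBP and PSBQ form the oxygen-evolving complex around the manganese cluster, and PSBR helps to anchor it. PSBO2 (AT3G50820) had 6.15, 5.86, 5.88 and 6.03 on the transgenic arrays and 5.76, 5.64, 5.59 and 5.65 on the Col-0 arrays. The groups did not overlap, and the gene rose 1.25-fold (0.32 ± 0.08, SE, adjusted p = 0.0176), with 0.27 and 0.37 within the slides and 0.42 on its dimmer probe. The call was lost with normexp (adjusted p = 0.118) and with scaling to the array median (0.0516). PSBO1, its close copy, had 7.54, 8.02, 7.42 and 7.5 on the transgenic arrays against 7.76, 7.69, 7.93 and 8.00 on the Col-0 arrays. Its change of -0.22 ± 0.14 (SE, adjusted p = 0.257) did not pass, and without transgenic replicate 2 it passed as lower at -0.36 (adjusted p = 0.0254).

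PSBP1 was at 0.10, PSBQ1 at 0.20 and PSBQ2 at -0.11 with the brightest probe, and none passed. The 2 dimmest PSBP1 probes were higher, by 0.44 and 0.45. PSBR (AT1G79040) read 7.49, 8.10, 7.46 and 7.55 on the transgenic arrays and 7.87, 7.84, 7.86 and 8.01 on the Col-0 arrays. Transgenic replicate 2 was above all Col-0 arrays and the other 3 were below all of them. PSBR was the one gene of the list whose probes, where it had several, were all negative, from -0.28 to -0.18 over 4 probes, and none passed. Without transgenic replicate 2 PSBR passed as lower at -0.39 (adjusted p = 0.00541).

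PSBS (AT1G44575), the protein that triggers the rapid dissipation of excess light energy as heat, had 5.82, 5.98, 5.65 and 5.77 on the transgenic arrays and 5.64, 5.32, 5.43 and 5.58 on the Col-0 arrays. The groups did not overlap, though transgenic replicate 3 lay only just above Col-0 replicate 1. Its rise was 1.24-fold (0.31 ± 0.10, SE, adjusted p = 0.0411), with 0.34 and 0.29 within the slides. The dimmer PSBS probe, assigned to another transcript of the gene, was at 0.24 and did not pass (limma adjusted p = 0.118 over probes). The call was lost in 14 of 24 alternative settings, among them the fits without transgenic replicate 1, 2 or 4 or Col-0 replicate 2, 3 or 4 (adjusted p of 0.0638 to 0.0957). The small subunits PSBW and PSBX were each at -0.02, and the 2 dimmer PSBW probes were higher, by 0.30 and 0.41.

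**Figure D3:**
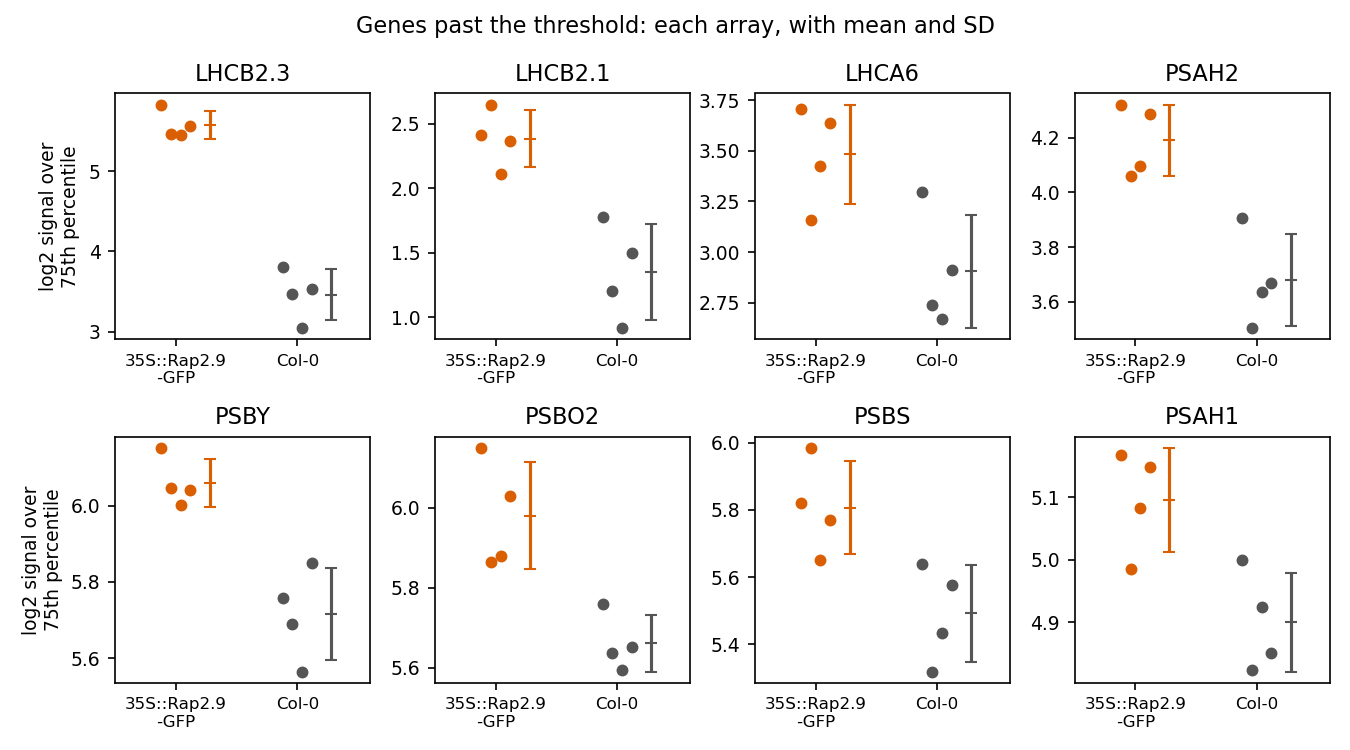
Log2 signal over the 75th percentile of the array (y axis) for the 8 genes past the threshold, 35S::Rap2.9-GFP left and Col-0 right; points are arrays and the bars give the mean and SD of 4 arrays. The groups are apart for 6 genes and overlap for LHCA6 and PSAH1.

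The single probes gave another count than the brightest probe of each gene. Of 126 probes, 41 were higher (32.5%) and 0 lower, beside 18.2% of all probes tested that were higher and 15.8% that were lower. The change was positive for 100 of the 126, beside 17679 of all 33160 probes tested. The median was 0.19, against 0.03 over all probes. Higher probes numbered 5 of 19 in the antenna of photosystem I, 19 of 51 in the antenna of photosystem II, 9 of 28 for photosystem I and 8 of 28 for photosystem II. Of the 34 genes with 2 or more probes, 24 had at least 1 higher probe (70.6%), beside 25.4% of the 5971 loci with 2 or more tested probes. For at least 1 lower probe the counts were 0 genes, beside 23.2% of loci. These shares are not over like numbers of probes, since the 34 genes had 3.47 probes on average and all 5971 loci 2.31, and a gene with more probes has more chances of 1 call. Probes assigned to 1 gene are not replicates.

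Within a gene, the dimmer probes tended to show the larger change. The dimmest probe had a larger change than the brightest in 28 of the 34 genes, and so did 72 of 84 dimmer probes in all. The same order was not counted for other loci, so whether it is particular to these genes was not tested. By probe level, with bins chosen after the values were seen, the median change of the listed probes was 0.51 under a level of 2 (13 probes), 0.41 from 2 to 4 (16 probes), 0.31 from 4 to 6 (32 probes), 0.17 from 6 to 7 (31 probes) and -0.03 at 7 or more (34 probes). The 2 dimmest bins hold under 20 listed probes each. Other probes of the array had medians of 0.03, -0.02, -0.06, -0.10 and -0.17 in the same bins. Under a level of 2, 9 of the 13 listed probes were higher, beside 18.1% of 29559 other probes. At 7 or more 1 of 34 was (2.94%), beside 1 of 51 other probes (1.96%), so each of these shares rests on 1 probe.

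**Figure D4:**
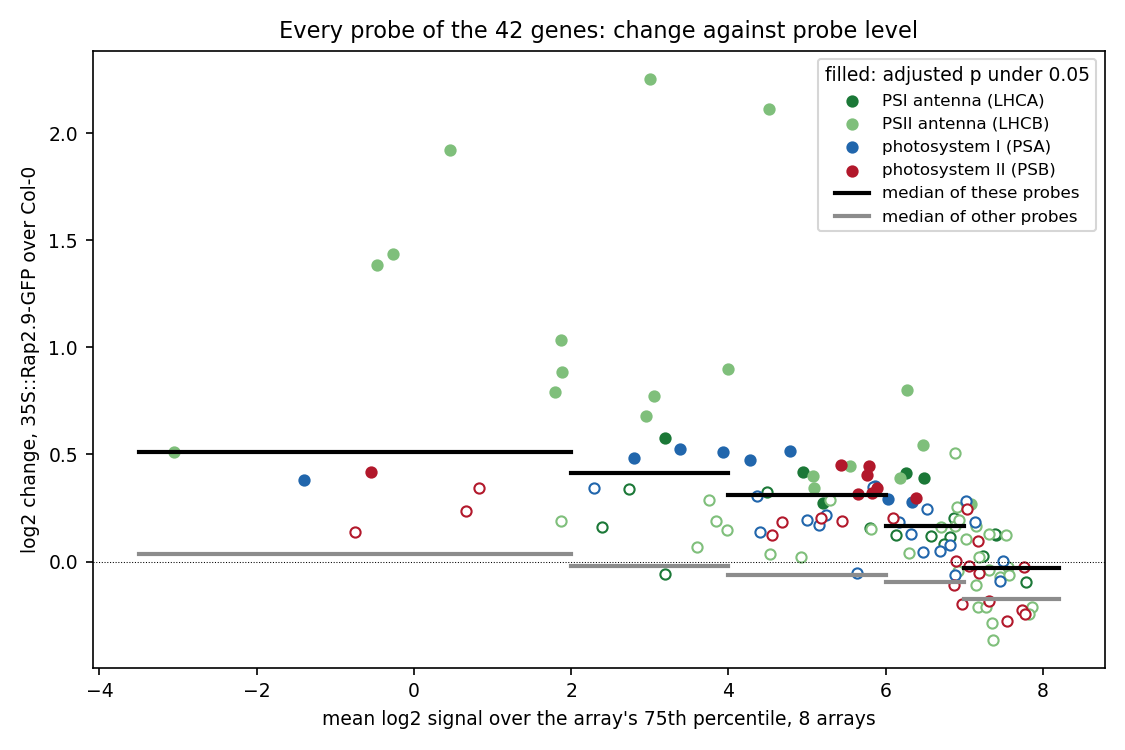
Log2 change, 35S::Rap2.9-GFP over Col-0 (y axis), against the mean level of the probe over 8 arrays (x axis, log2 signal over the 75th percentile) for the 126 probes; filled points passed the threshold, and horizontal lines give medians per bin of level for these probes and for the other probes. Of the listed probes, 9 of 13 were higher under a level of 2, beside 18.1% of other probes, and 1 of 34 at 7 or more, beside 1 of 51.

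The brightest probes of these genes lay near the top of the scale. The median gene of the list stood at the 99.7th percentile of brightness among all genes tested. For the 34 probes at a level of 7 or more, the median signal was set against the brightest spot of the array. It was 74.1%, 64.9%, 71.1% and 73.1% of that spot on transgenic replicates 1 to 4. On Col-0 replicates 1 to 4 it was 69.4%, 63.1%, 60.8% and 61.9%. The scanner software marked 0 spots of these probes as saturated. With the brightest probe under a level of 6, a setting added after the data were seen, 36 genes had a probe, of which 21 were higher and 0 lower, beside 18.7% and 16.1% of all genes in that setting. The part of signal compression at the top of the scale in the small changes of the brightest probes was not tested.

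The 42 genes also varied by array. Their median deviation from the Col-0 mean was 0.04, 0.26, -0.05 and -0.01 on transgenic replicates 1 to 4, against 0.11, -0.10, -0.07 and 0.09 on Col-0 replicates 1 to 4. Transgenic replicate 2 stood above all other arrays. Its 75th percentile of signal, 1699, was the lowest of all arrays, beside 2562 to 2576 on the other transgenic arrays and 1724 to 2150 on the Col-0 arrays. Without it, 7 genes were higher and 6 were lower, namely LHCA1, LHCB1.2, LHCB1.3, LHCB1.5, PSBO1 and PSBR. Of all genes 17.3% were then higher and 15.9% lower, so both counts are near the shares of all genes. Of the single probes 33 were higher and 13 lower, beside 17.1% and 16.1% of all probes. The brightest probes of the 6 lower genes had levels of 7.17 to 7.86. Other probes at a level of 7 or more had a median change of -0.17 with all arrays in the fit. Once transgenic replicate 2 is left out, every transgenic array has a higher 75th percentile than every Col-0 array. The part of level and scaling in these lower calls was not tested. With scaling to the array median the antenna medians were -0.03 for photosystem I and -0.12 for photosystem II. The subunit medians were 0.02 for photosystem I and -0.05 for photosystem II. In that setting 4 genes were higher and 1 lower, beside 12.8% and 20% of all genes.

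**Figure D5:**
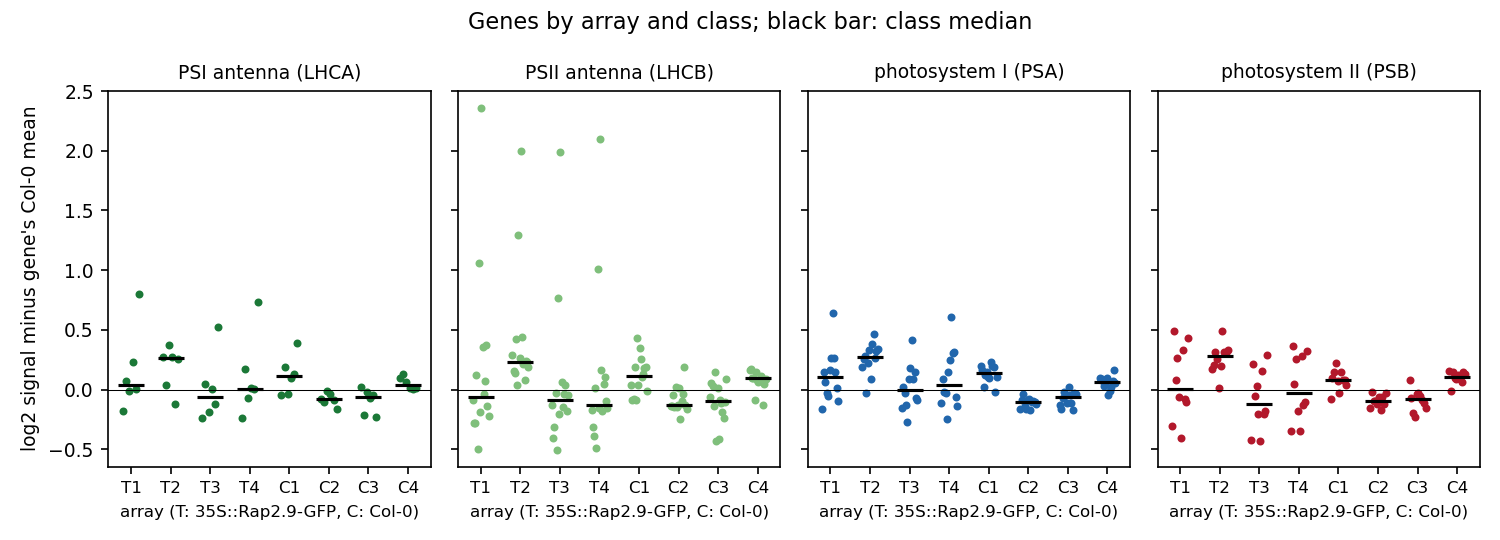
Log2 signal minus the Col-0 mean of the gene (y axis) for each gene on each array (x axis; T1 to T4 are 35S::Rap2.9-GFP replicates 1 to 4 and C1 to C4 are Col-0 replicates 1 to 4), by class; black bars are class medians. T2 has the highest class medians, 0.23 to 0.28.

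Genes that work beside the photosystems were followed as lists, whose counts stand beside 18.6% of all genes that were higher and 16% lower. Of 10 nuclear genes of the electron transport chain, 0 were higher, 1 was lower and 9 did not pass, with a median of 0.01. The one that fell was LFNR2, a leaf ferredoxin-NADP reductase that draws electrons from photosystem I (6.15 ± 0.04 in transgenic leaves, against 6.39 ± 0.06 in Col-0, SD, n = 4 each; change -0.24, adjusted p = 0.0115). Its call was lost in 5 of 23 alternative settings, with an adjusted p of up to 0.15. Of 8 genes of cyclic electron flow, state transitions and energy quenching, 2 were lower and 6 did not pass. TAP38, the phosphatase that reverses LHCII phosphorylation, had 4.50, 4.62, 4.54 and 4.47 on the transgenic arrays, against 5.04, 4.94, 4.92 and 5.18 on the Col-0 arrays. It fell by 0.49 ± 0.07 (SE, adjusted p = 0.00232), with no overlap, a call lost in 2 of 24 alternative settings, with an adjusted p of up to 0.0815. STN8, a kinase of photosystem II core proteins, fell by 0.31 ± 0.08 (SE, adjusted p = 0.0229). Leaving out transgenic replicate 1 (adjusted p = 0.0524) or 4 (0.0561) ended the STN8 call, as did 3 other settings (up to 0.123).

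Among 5 tested LHC-related proteins outside the antenna proper, 3 were higher, 1 was lower and 1 did not pass. ELIP1, an early light-induced protein that is known to bind chlorophyll under light stress, rose by 1.1 ± 0.13 (SE, adjusted p = 0.000781), at -1.29 ± 0.06 in transgenic leaves and -2.39 ± 0.27 in Col-0 (SD, n = 4 each). SEP1 rose by 0.22 and OHP2 by 0.24, and LHCB7 fell by 0.23. Of 24 alternative settings, the SEP1 call was lost in 6, OHP2 in 15 and LHCB7 in 10, with adjusted p of up to 0.207, 0.177 and 0.0844. Single arrays that ended a call when left out were Col-0 replicates 2 and 4 for SEP1 (up to 0.0554), all but transgenic 3 and Col-0 1 for OHP2 (up to 0.104), and all but transgenic 1 and Col-0 2 for LHCB7. Of 3 tested genes of antenna import, 1 was higher, CAO, the name under which the gene table lists the locus of the cpSRP43 chaperone that carries LHC proteins to the thylakoid membrane. It rose by 0.61 ± 0.08 (SE, adjusted p = 0.00111), and the call held in all 24 alternative settings.

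Of 9 genes of photosystem assembly and repair, 2 were higher and 7 did not pass, with a median of -0.00286. PSB27, an assembly factor of photosystem II, rose by 0.47 ± 0.11 (SE, adjusted p = 0.0144). FTSH5, a subunit of the protease that removes damaged D1 protein, rose by 0.27 ± 0.09 (SE, adjusted p = 0.0463). Its call was lost in 12 of 24 alternative settings (adjusted p of up to 0.222), among them the fits without transgenic replicate 1 or 4 or Col-0 replicate 2, 3 or 4 (up to 0.113). Of 5 tested sigma factors, which direct the plastid RNA polymerase, SIGE rose by 0.65 ± 0.11 (SE, adjusted p = 0.00336) and SIG2 by 0.26 ± 0.07 (SE, adjusted p = 0.0265), and 3 did not pass. SIG2 lost its call in 9 of 24 settings (adjusted p of up to 0.149), among them the fits that left out each of those same 5 arrays in turn (up to 0.0672). Plastid-encoded subunits were not analysed here.

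Of 6 regulators of nuclear photosynthesis genes, 3 were higher, 2 were lower and 1 did not pass. GLK2, one of a pair of GOLDEN2-like activators of antenna and chlorophyll genes, had 3.28, 3.48, 3.57 and 3.30 on the transgenic arrays, against 3.12, 2.96, 2.75 and 2.81 on the Col-0 arrays. It rose by 0.50 ± 0.11 (SE, adjusted p = 0.00983), while GLK1, named after its value was seen, was at 0.17 (adjusted p = 0.121). HY5, a light-signalling factor, rose by 0.34 ± 0.10 (SE, adjusted p = 0.034). The HY5 call was lost in 13 of 24 settings, and with normexp the change was 0.0903 (adjusted p = 0.947). Leaving out transgenic replicate 1, 2 or 3 or Col-0 replicate 1, 2 or 4 ended it too (up to 0.0764). The GATA factors CGA1 and GNC, which promote chloroplast development, fell by 1.74 ± 0.17 (SE, adjusted p = 0.00037) and 0.41 ± 0.06 (SE, adjusted p = 0.00173). CGA1 read -5.60, -6.26, -5.57 and -5.63 on the transgenic arrays, against -4.25, -3.87, -3.91 and -4.07 on the Col-0 arrays, with no overlap. With normexp its change was -1.05 and the call was lost (adjusted p = 0.22).

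Markers of other cells also differed between the genotypes, where 18.6% of all genes were higher and 16% lower. The part of these markers in the results above was not tested. All 5 xylem markers were higher, with a summed level of 0.66 to 1.3 on the transgenic arrays and -0.66 to 0.65 on the Col-0 arrays. IRX3 and IRX1 each rose by 1.24, XCP1 by 1.35 and XCP2 by 0.89, the last 2 with calls lost for 6 and 7 of the 8 arrays left out (all but transgenic 4 and Col-0 2 for XCP1, all but Col-0 2 for XCP2). With normexp none of these 4 passed, at 0.52 for IRX3 (adjusted p = 0.627), 0.73 for IRX1 (0.266), 0.88 for XCP1 (0.258) and 0.74 for XCP2 (0.174). All 4 root and flower markers were higher, with sums of -0.94 to 0.47 on the transgenic arrays and -2.93 to -1.95 on the Col-0 arrays (PYK10 at 3.10, SEP3 at 1.6, AG at 1.27 and NRT2:1 at 0.59). With normexp none of the 4 passed, at 2.27 for PYK10 (adjusted p = 0.0602), 0.66 for SEP3 (0.523), 0.49 for AG (0.722) and 0.11 for NRT2:1 (0.966). All 3 guard cell markers were higher, with sums of 1.09 to 1.21 against 0.49 to 0.88 in Col-0 (MYB60 at 0.57, KAT1 at 0.40 and FAMA at 0.38). With normexp none of the 3 passed (adjusted p of 0.0778, 0.135 and 0.183).

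The phloem markers SWEET11 (-0.61) and SWEET12 (-0.31) fell and the other, SUC2, did not pass, with sums of 3.63 to 3.90 on the transgenic arrays and 4.03 to 4.31 on the Col-0 arrays. Neither of the 2 trichome markers passed, with TRY at 0.17 (adjusted p = 0.119) and sums of -3.01 to -2.80 against -3.25 to -2.88 in Col-0. Among the mesophyll markers, the rise of CA1, a carbonic anhydrase of the chloroplast, was 0.96 ± 0.25 (SE), and the other 3 lay between -0.09 and 0.05. Without transgenic replicate 1 or 4 or Col-0 replicate 2 or 3 the CA1 call was lost (adjusted p of up to 0.0615). Single arrays also ended the calls of KAT1 (transgenic 1, 3 or 4 or Col-0 3 or 4, adjusted p of up to 0.0798), NRT2:1 (transgenic 1, 3 or 4 or Col-0 1 or 3, up to 0.0859) and SWEET12 (transgenic 4 or Col-0 3 or 4, up to 0.0589). With normexp SWEET12 did not pass (adjusted p = 0.125), while SWEET11 and CA1 did.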

How the data were processed

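The study deposited the scanner output of 8 Agilent 1-colour arrays and a value table. Per the file headers, the intensity of each spot was extracted with Feature Extraction 11.5.1.1 for array design 021169, and the processed signal is background-subtracted and not scaled between arrays. The value table the authors deposited holds log2 values centred on the median of each probe, whose scaling between arrays is unknown. Its column medians were -0.0144, -0.00419, -0.00222 and 0.00185 for transgenic replicates 1 to 4 and 0.00145, 0.0116, -0.00356 and 0.00412 for Col-0 replicates 1 to 4. It correlated with the centred scanner values at r = 0.658 for transgenic replicate 1 and 0.851 to 0.969 for the other arrays, across probes.

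Of 45220 spots, 1417 controls and 25 to 63 outlier spots per array were left out, and spots of a probe were averaged. From the log2 of each processed signal, the 75th percentile of its array was subtracted. A probe was tested if well above background on at least 4 of 8 arrays (33160 of 43603). Loci came from the RefSeq transcript names (34348 probes matched, 9255 not, which kept their own name), with gene names from RefSeq (assembly TAIR10.1). The array header names TAIR10, so no positions are given. The brightest tested probe stood for a gene (25102 genes). The test was limma 3.58.1 under R 4.3.3 (lmFit, eBayes, two-sided, Benjamini-Hochberg over all genes or all probes, threshold 0.05). Files were read with the R packages jsonlite (version 2.0.0) and data.table (version 1.17.8). Sequences, and motifs in them, were not analysed here. The fit was also run on simulated data, drawn with independent normal noise for each gene. Those data hold no shift shared by many genes of an array and no signal compression, so they cannot speak to either.

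The members and lists were chosen with earlier results of these data known. Named were all 42 genes and, from each list, up to 4 genes past the threshold with the largest change, or the 1 with the smallest p where none passed. Alternatives were another background correction (normexp with an offset of 50, on the median spot signal because the files hold no mean signal), other scaling, the value table, other filters, other probes of a gene, blocks for slide or for replicate number, other variance estimates and leaving out each array. The slides each held 2 arrays of each genotype. Summed marker levels are the log2 of the summed linear values.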

Additional observations from a re-analysis of the deposited data

Results flagged for a closer look

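For each of the 42 genes, the 4 arrays of each genotype were checked for 1 array far from the other 3, by Dixon's criterion at its 95% level. Of 84 such groups 10 had one. The groups share the same arrays, so this count cannot be set against a chance rate. Transgenic replicate 2 lay far above the other transgenic arrays for 7 genes, with a level of 8.10 for LHCA1, 7.58 for LHCB1.5, 7.75 for LHCB2.2, 7.10 for PSAD1, 7.82 for PSAO, 8.10 for PSBR and 7.38 for PSBX. Transgenic replicate 3 lay far below the others for PSAE2, at 5.54, and for PSBQ1, at 5.11. Col-0 replicate 4 lay far above the other Col-0 arrays for PSBR, at 8.015. None of the 8 genes past the threshold was among them.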

How the results depend on the processing

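The calls of LHCB2.3, LHCB2.1 and PSAH2 held in all 24 alternatives. For a gene with 1 probe, such as PSAH2, the settings that choose or average probes used the same values. The share of all genes that was higher in the same setting stands in brackets. The count of higher genes was 3 with normexp (5.12%), 14 with quantile normalization (16.9%), 14 with the value table (16.8%), 4 with median scaling (12.8%), 5 with no filter on dim probes (10.8%), 13 with the mean of the probes (18.3%), 21 with the dimmest probe (16.9%), and 21 with the brightest probe under a level of 6 (18.7%), the last chosen after seeing the data. It was 5 to 10 without single arrays (14.1% to 17.3%). LHCB1.5 was the 1 lower gene with quantile normalization, median scaling, array weights and trended robust variances. Of all genes 18.6%, 20%, 18.7% and 17.3% were lower in these settings. Leaving out single arrays gave 0 to 6 lower genes, beside 12% to 15.9% of all genes. With median scaling 12.8% of all genes were higher and 20% lower, against 18.6% and 16%, and the PSI antenna median was -0.0326. Quantile normalization gave medians of 0.14 for that class and 0.18 for photosystem II, and the deposited values 0.15 and 0.18. The mean of the probes gave 0.16 for the PSI antenna, 0.27 for the PSII antenna and 0.18 for photosystem II. The dimmest probe gave 0.31, 0.60, 0.32 and 0.19 for the PSI antenna, the PSII antenna, photosystem I and photosystem II, and the brightest probe under a level of 6 gave 0.30, 0.68, 0.35 and 0.32.

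Negative changes turned into higher calls by the choice of probe. With the mean of the probes these were LHCB1.1 at 0.42, LHCB2.2 at 0.47 and LHCB4.1 at 0.30. With the dimmest probe they were LHCA1 at 0.42, LHCB1.1 at 0.77, LHCB2.2 at 0.79, LHCB4.1 at 0.51, LHCB5 at 0.45, LHCB6 at 0.68, PSAD1 at 0.38 and PSBW at 0.41. With the brightest probe under a level of 6 LHCA1, LHCB1.1, LHCB5, LHCB6 and PSBW had these same values and LHCB2.2 was at 0.88. The cause was not tested.

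The labels do not say whether same-numbered samples were paired. Deviations of same-numbered arrays correlated at 0.16, -0.10, -0.32 and 0.28 over genes. Those of other array pairs ran from -0.32 to 0.36, a like range, so the correlations do not settle pairing. With the replicate block 6 genes were higher (16%), and 5 with the replicate block and slide (11%, PSBO2 adjusted p = 0.0574). Of single probes, 27 were higher with normexp (5.02% of all probes), 65 with quantile normalization (16.4%), 27 with median scaling (12.4%), 66 with the value table (16.4%), 15 with the replicate block and slide (10.6%), and 27 to 49 without single arrays (13.7% to 17.1%). Lower probes numbered 2 with quantile normalization (18.6% of all probes lower), 2 with median scaling (20%), and 0 to 13 without single arrays (11.9% to 16.1%). Calls near the threshold (PSAH1, PSBS, LHCA6) are limited by 4 arrays per genotype. Normexp used the median spot signal.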
